A study of Mus musculus with 7 samples.

Results

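The CCT chaperonin, also called TRiC, is encoded by 8 genes in mouse blood stem cells, and all 8 were measured: Tcp1, Cct2, Cct3, Cct4, Cct5, Cct6a, Cct7 and Cct8. They were taken by symbol from a table of 19649 genes, and all 8 passed the filter on low values (at least 10 normalized counts in 3 libraries) that left 16047 genes to test. A normalized count is the number of reads on a gene divided by a size factor for its library. RNA sequencing covered 3 DEL52 libraries (genotype Calr fl/fl (Calr del52/del52) with MxCre, homozygous for the knock-in mutant) and 4 Mx1_Cre libraries (Calr +/+ with MxCre, the wild-type controls). All libraries came from sorted mouse long-term haematopoietic stem cells, defined by CD150 and by the absence of CD48 among lineage-negative cells with Kit and Sca-1. Every mouse carried MxCre, a Cre recombinase under the interferon-responsive Mx1 promoter, which is also active outside stem cells. Every mouse received pI:pC, a double-stranded RNA mimic that switches this promoter on, and cells were taken on day 14 after induction began, with no other treatment. The mice are described as Calr knock-ins crossed to mice that express MxCre, and their sex and age were not stated.

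CCT is a cytosolic machine built from a pair of stacked rings, and each ring holds 1 copy of every subunit, so the complex uses its 8 products in equal number. It closes over newly made proteins and folds them with energy from ATP. Its best known substrates are actin and tubulin, which most cells cannot fold without it, and it also folds many proteins with WD40 repeats. Calreticulin, the product of Calr, is a chaperone of a different compartment, the endoplasmic reticulum, and its del52 form, with an altered C terminus, is known from myeloproliferative neoplasms.

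Between 21325340 and 28710304 reads per library were counted in genes, and the 8 subunit genes were each covered by 5988 to 20749 reads per library. Counting of reads is therefore a small part of the error of these genes. The RNA was amplified, so reads do not count starting molecules, and the error of sampling those is not known. Whether the libraries were made from different animals was not stated, and p-values here reflect only how far these 7 libraries scatter. Mx1_Cre 3 and 4 stood apart from the other 5 libraries. The slope over genes of log2 deviation on log2 exonic length was -0.12, 0.01 and -0.17 in DEL52 1 to 3, against -0.10, -0.11, 0.24 and 0.24 in Mx1_Cre 1 to 4, so genes with much exonic sequence read relatively high in Mx1_Cre 3 and 4. Their titles are numbered in the same series as those of DEL52 1 and 2, and the sources used here do not say whether that series marks a batch. All 11 stem cell markers fixed for the check, among them Slamf1 for CD150, Kit and Ly6a for Sca-1, passed the filter, and their summed normalized counts were 46942 to 56036 in DEL52 libraries, against 50541, 51913, 89222 and 79799 in Mx1_Cre 1 to 4. The sort markers moved apart between the pairs of controls: in Mx1_Cre 3 and 4 against Mx1_Cre 1 and 2, Kit was higher by 2.66 and Ly6a and Slamf1 had -1.23 and -0.38 (log2, all called by limma, that is with an adjusted p under 0.05). The sum over 14 neutrophil and monocyte markers was 50376, 11007 and 13333 in DEL52 1 to 3, against 52047, 45659, 89744 and 51493 in Mx1_Cre 1 to 4. Of these 14 markers 11 had negative log2 differences (median -2.11) and 0 were called by limma. In 6 of the 14 every DEL52 library was below every Mx1_Cre library, as in 4.34% of all tested genes. The sum was 6889 to 13277 in DEL52 and 9721 to 21841 in Mx1_Cre libraries for 7 megakaryocyte markers, and 2097 to 3197 in DEL52 and 2357 to 4527 in Mx1_Cre libraries for 10 erythroid markers. It was 1364 to 1814 in DEL52 and 972 to 1655 in Mx1_Cre libraries for 6 lymphoid markers (Ebf1 at 0 in DEL52 2), and 98.2 to 243 in DEL52 and 289 to 477 in Mx1_Cre libraries for 6 mast cell and basophil markers (Ear2 and Ms4a2 at 0 in DEL52 2 and 3, Mcpt8 in DEL52 1 and 2). Ccr2, a monocyte gene, was at 0 in Mx1_Cre 1. The part of these marker differences in the results on the chaperonin was not tested. Calr itself had 14239, 15724 and 15317 normalized counts in DEL52 1 to 3, against 18606, 16639, 15922 and 15965 in Mx1_Cre 1 to 4. Every DEL52 library was below every Mx1_Cre library, an arrangement found in 4.34% of all tested genes. The log2 difference was -0.15 and was not called (limma, adjusted p = 0.617). A knock-in that alters the end of the protein may leave its mRNA level as it was, so Calr is a weak check of the labels.

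The 8 genes lie on 8 different chromosomes, none of them linked to another. By GENCODE vM21 on GRCm38, Tcp1 lies at chr17:12915701-12925067, Cct2 at chr10:117051001-117063814, Cct3 at chr3:88297116-88321767 and Cct4 at chr11:22990519-23003780. Cct5 lies at chr15:31590800-31601804, Cct6a at chr5:129786998-129846371, Cct7 at chr6:85451514-85468475 and Cct8 at chr16:87483326-87495873. Cct2, Cct5 and Cct8 are on the minus strand and the other 5 on the plus strand. This annotation classes 7 as protein coding and types Cct6a as a processed transcript, although its product is a known subunit. The libraries were unstranded, so reads from overlapping genes cannot be told apart. Tcp1 overlaps the mitochondrial ribosomal protein gene Mrpl18 and Acat3, Cct6a overlaps the phosphatase gene Psph, Cct7 overlaps Pradc1 and Cct8 overlaps the deubiquitinase gene Usp16, all on opposite strands, and small nucleolar RNA genes lie inside Tcp1 and Cct6a. Cct2, Cct3, Cct4 and Cct5 overlap no other annotated gene.

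The subunit genes are unlinked, and their levels varied together between libraries (values further on). Promoter sequences are shown here as description, and their part in that variation was not tested. RefSeq windows on GRCm38.p6, from 250 bases before to 50 bases after a start site, matched 7 of the 8 genes with 9 windows. The motifs searched on both strands were the CCAAT box (CCAAT), the GC box (GGGCGG), an ETS core (CCGGAAG), the cyclic AMP response element (TGACGTCA) and a pair of inverted heat shock factor elements (GAANNTTC and TTCNNGAA). The windows of 4 genes are printed because they hold different combinations of these motifs. Letters are lower case except for motif matches, which are in capitals and include matches to the opposite strand.

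Cct7, chr6:85451255-85451554, plus strand: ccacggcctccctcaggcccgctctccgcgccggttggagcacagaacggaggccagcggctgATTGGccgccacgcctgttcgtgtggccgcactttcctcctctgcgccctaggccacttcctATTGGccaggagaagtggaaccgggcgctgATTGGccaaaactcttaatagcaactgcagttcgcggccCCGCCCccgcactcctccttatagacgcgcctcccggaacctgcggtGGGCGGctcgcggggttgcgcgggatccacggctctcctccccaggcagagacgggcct
Tcp1, chr17:12916079-12916378, plus strand: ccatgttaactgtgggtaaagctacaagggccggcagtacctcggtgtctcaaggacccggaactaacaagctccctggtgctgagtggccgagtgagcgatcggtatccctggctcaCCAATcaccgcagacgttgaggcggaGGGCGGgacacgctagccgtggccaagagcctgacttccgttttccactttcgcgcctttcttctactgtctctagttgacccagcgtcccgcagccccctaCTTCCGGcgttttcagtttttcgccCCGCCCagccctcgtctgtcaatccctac
Cct8, chr16:87495820-87496119, minus strand: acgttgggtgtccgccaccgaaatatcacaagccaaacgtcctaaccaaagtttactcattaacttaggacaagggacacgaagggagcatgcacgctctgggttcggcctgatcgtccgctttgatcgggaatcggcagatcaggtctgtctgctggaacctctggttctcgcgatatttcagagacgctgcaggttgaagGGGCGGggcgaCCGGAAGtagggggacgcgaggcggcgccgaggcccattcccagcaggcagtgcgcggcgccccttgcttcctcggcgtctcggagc
Cct5, chr15:31601797-31602096, minus strand: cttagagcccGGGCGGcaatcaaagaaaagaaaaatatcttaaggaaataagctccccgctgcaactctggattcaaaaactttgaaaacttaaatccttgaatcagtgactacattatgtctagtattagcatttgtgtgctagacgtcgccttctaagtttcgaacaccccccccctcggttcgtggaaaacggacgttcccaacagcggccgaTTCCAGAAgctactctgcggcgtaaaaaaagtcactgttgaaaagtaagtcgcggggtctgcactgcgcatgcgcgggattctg

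The window of Cct7 holds 3 CCAAT boxes, all on the opposite strand, and 2 GC boxes. That of Tcp1 holds 1 CCAAT box, 2 GC boxes and 1 ETS core, which is also on the opposite strand. That of Cct8 holds 1 GC box beside 1 ETS core, and that of Cct5 holds 1 GC box and 1 match to TTCNNGAA. A GC box was found in 8 of the 9 windows, at least 1 for each of the 7 genes, and it occurs in 35.7% of all 32851 promoter windows. The other window of Cct5, not printed, holds none of the motifs. CCAAT was found in 4 of the 9 windows (Cct3, Cct6a, Cct7 and Tcp1; 37.4% of all windows) and CCGGAAG in 3 of 9 (Cct2, Cct8 and Tcp1; 8.86% of all windows). TGACGTCA was found in 0 of 9 (1.79% of all windows). GAANNTTC was found in 1 of 9, in the second window of Cct2 (7.86% of all windows), and TTCNNGAA in 2 of 9, for Cct5 and Cct6a (8.52% of all windows). These matches describe letters and say nothing of whether a factor binds.

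Levels of different genes were compared as FPKM (fragments per kilobase of transcript, scaled to the mapped fragments of the library), summed over the annotated transcripts of each gene. The 8 transcripts of an equimolar complex were not equally abundant. Cct5 averaged 392 ± 28.5 FPKM in DEL52 libraries (SD, n = 3) and 357 ± 94.4 in Mx1_Cre libraries (SD, n = 4), and Cct6a averaged 365 ± 17.0 FPKM in DEL52 and 360 ± 85.6 in Mx1_Cre libraries. At the other end Cct4 averaged 195 ± 6.76 FPKM in DEL52 and 180 ± 31.1 in Mx1_Cre libraries, and Cct2 averaged 142 ± 5.93 in DEL52 and 131 ± 29.2 in Mx1_Cre libraries. Within a library the highest subunit had between 2.65 and 2.85 times the FPKM of the lowest in DEL52 and between 2.62 and 2.88 times in Mx1_Cre libraries.

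The order of the subunits was nearly fixed. Cct2 was last, Cct4 seventh and Tcp1 sixth in 7 of 7 libraries, although the levels of every subunit changed between libraries. Tcp1, the founding member of the family and named for the mouse t-complex on chromosome 17, averaged 233 ± 30.6 FPKM in DEL52 and 226 ± 74.9 in Mx1_Cre libraries. Cct5 was first in 4 libraries, namely the 3 DEL52 libraries and Mx1_Cre 2, and Cct6a was first in the other 3. The middle of the order was less regular. Cct8 averaged 321 ± 41.2 FPKM in DEL52 and 301 ± 94.9 in Mx1_Cre libraries, Cct7 293 ± 24.3 in DEL52 and 287 ± 77.0 in Mx1_Cre libraries, and Cct3 288 ± 21.7 in DEL52 and 270 ± 73.6 in Mx1_Cre libraries. Levels of all subunits shift together between libraries, so neighbours were also compared within each library. Cct8 was above Cct3 in 7 of 7 libraries, by 0.15 ± 0.08 (SD, n = 7) on the log2 FPKM scale. Cct8 was above Cct7 in 6 of 7 (0.09 ± 0.07) and Cct7 above Cct3 in 6 of 7 (0.06 ± 0.07). Cct5 and Cct6a differed by less than their spread (0.03 ± 0.10), with Cct5 higher in 4 of 7.

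**Figure D1:**
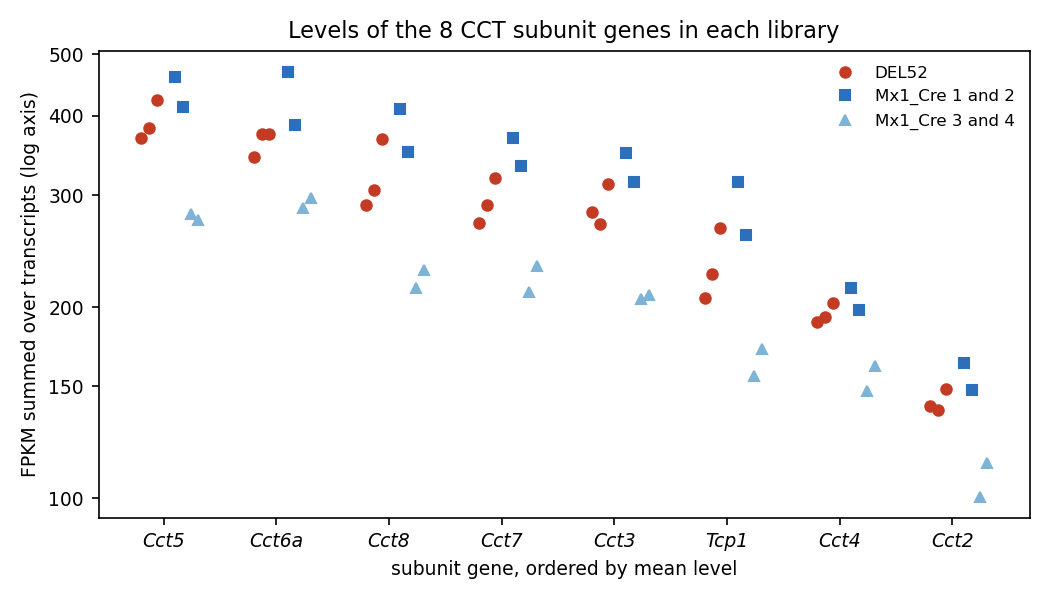
Summed FPKM of the 8 subunit genes (log axis) in each of the 7 libraries, with subunits ordered by mean level from left to right and 1 point per library. For every subunit the DEL52 points lie above those of Mx1_Cre 3 and 4 and below that of Mx1_Cre 1, while Cct2, Cct4 and Tcp1 keep the lowest places in all libraries.

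The spread between subunits was similar in both genotypes. The SD of log2 FPKM over the 8 genes was 0.493 ± 0.0174 in DEL52 libraries (SD, n = 3) and 0.502 ± 0.0371 in Mx1_Cre libraries (SD, n = 4). As a share of the summed FPKM of the 8 genes, Cct5 took 17.6% in DEL52 and 16.9% in Mx1_Cre libraries, Cct6a 16.4% in DEL52 and 17.2% in Mx1_Cre, and Cct8 14.4% in DEL52 and 14.1% in Mx1_Cre. Cct7 took 13.2% in DEL52 and 13.6% in Mx1_Cre libraries, Cct3 12.9% in DEL52 and 12.8% in Mx1_Cre, and Tcp1 10.4% in DEL52 and 10.5% in Mx1_Cre. Cct4 took 8.77% in DEL52 and 8.69% in Mx1_Cre libraries, and Cct2 6.38% in DEL52 and 6.27% in Mx1_Cre. For 7 subunits the library shares of both genotypes overlapped. The shares of Cct5 were 17.63%, 17.54% and 17.54% in DEL52 1 to 3, against 16.75%, 17.19%, 17.50% and 16.24% in Mx1_Cre 1 to 4. By this measure they did not overlap, but DEL52 3 (17.54%) and Mx1_Cre 3 (17.50%) nearly met. The difference of 0.649 percentage points was not tested, and shares by other measures were not compared. The widest share was that of Cct4, from 7.79% in Mx1_Cre 1 to 9.57% in Mx1_Cre 4, a ratio of 1.23. Cct4 averaged 9.38% in Mx1_Cre 3 and 4 and 8.01% in Mx1_Cre 1 and 2, whereas Cct8 averaged 13.5% in Mx1_Cre 3 and 4 and 14.7% in Mx1_Cre 1 and 2, and Tcp1 9.96% in Mx1_Cre 3 and 4 and 11.1% in Mx1_Cre 1 and 2.

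The low end of this order depended partly on how length was treated. As a mean over all 7 libraries, Cct5 was highest under each of 4 measures: summed FPKM, normalized count per kb of the most abundant transcript, normalized count per kb of all exonic sequence, and FPKM of the most abundant transcript alone. Within the Mx1_Cre libraries, however, Cct6a had the higher mean by summed FPKM. Cct2, Cct4 and Tcp1 also took the 3 lowest places when normalized counts were divided by the length of the most abundant transcript, a measure added after the data were seen. Divided by all exonic sequence, which is 5030 bases for Tcp1 and 2557 for Cct2, Cct2 moved up to the fourth place and Tcp1 was last. By the most abundant transcript alone Cct2 had the fifth place and Cct4 was last. Cct6a, second by summed FPKM, had the fifth place per kb of the most abundant transcript. Measures by the most abundant transcript depend on which one leads. For Cct8 it is of the nonsense-mediated decay class (1567 bases, mean 121 FPKM), close to a protein-coding one (2394 bases, 119 FPKM). For Cct4 it has 2484 bases, against 1634 for the next.

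The subunit genes also differed in how many transcripts carried their signal. Cct5 and Cct2 were nearly single-transcript genes: ENSMUST00000022842.15 held 94.6% of Cct5 FPKM and ENSMUST00000047672.8 held 93.8% of Cct2 FPKM. For Cct3 the leading transcript held 88.8%. Cct4 was divided between 2 protein-coding transcripts, ENSMUST00000173867.7 with 56.5% in DEL52 and 51.9% in Mx1_Cre libraries, and ENSMUST00000020562.4 with 38.7% in DEL52 and 41.6% in Mx1_Cre libraries. The leading model of the nonsense-mediated decay class took 39.6% of Cct8 FPKM in DEL52 and 38.8% in Mx1_Cre libraries, and that of Cct7 took 23.8% of the gene in DEL52 and 24.5% in Mx1_Cre libraries. In Tcp1 a retained-intron model of 578 bases took 17.8% in DEL52 and 18.5% in Mx1_Cre libraries. In Cct6a a transcript of 411 bases took 31.3% in DEL52 and 31.7% in Mx1_Cre libraries. FPKM divides by length, so few fragments on a short model count for much in a gene's sum. Of the 67 subunit transcripts in the table, 48 passed a filter of 1 FPKM in 3 libraries, and limma called 0 of these 48 between genotypes (called meaning a Benjamini-Hochberg adjusted p under 0.05 over all features), with 0 at an unadjusted p under 0.05. Over all 30156 transcripts tested limma called 0 (0.0%), with 2077 at an unadjusted p under 0.05.

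The main comparison asked whether the genes of the complex differed between DEL52 and Mx1_Cre stem cells, on the scale of normalized counts. Over all libraries none passed the test. Cct5, the most abundant subunit, had 17442, 18528 and 19785 normalized counts in DEL52 1 to 3, against 22053, 19342, 13192 and 12704 in Mx1_Cre 1 to 4. The DEL52 values lay inside the range of the controls, above Mx1_Cre 3 and 4 and overlapping Mx1_Cre 2. The log2 difference was 0.18 (SE 0.23, 95% interval -0.34 to 0.71; limma, adjusted p = 0.687).

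Cct8, whose overproduction raises assembly of the complex in Caenorhabditis elegans, had 13871, 14424 and 17347 normalized counts in DEL52 1 to 3, against 19167, 16651, 9715 and 10519 in Mx1_Cre 1 to 4. Tcp1 had 8222, 9264 and 10210 normalized counts in DEL52, against 12801, 10115, 6381 and 6800 in Mx1_Cre libraries. In both genes DEL52 3 exceeded Mx1_Cre 2, and DEL52 1 and 2 fell between the pairs of controls. The log2 difference was 0.17 for Cct8 (95% interval -0.44 to 0.79; limma, adjusted p = 0.741) and 0.09 for Tcp1 (-0.52 to 0.69; adjusted p = 0.870).

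For Cct3, Cct6a and Cct7 every DEL52 library lay below Mx1_Cre 1 and 2 and above Mx1_Cre 3 and 4. Cct3 had 13512, 14089 and 15058 normalized counts in DEL52 1 to 3, against 17639, 15333, 10321 and 10219 in Mx1_Cre 1 to 4. Cct6a, the somatic partner of the testis gene Cct6b, had 14750, 15319 and 15616 in DEL52, against 19728, 16177, 11510 and 11777 in Mx1_Cre libraries. Cct7 had 14531, 15552 and 16700 in DEL52, against 19770, 17231, 11132 and 12003 in Mx1_Cre libraries. These 3 of 8 subunits stand against 3.88% of all tested genes with the same arrangement. Their log2 differences were 0.13, 0.08 and 0.09, with limma adjusted p-values of 0.776, 0.859 and 0.841.

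Cct2 and Cct4, the lowest subunits by summed FPKM, had the smallest standard errors (0.21 and 0.18). Cct2, whose human product can also act as a receptor that brings protein aggregates to autophagy, had 6944, 7020 and 7372 normalized counts in DEL52 1 to 3, against 8291, 7365, 4995 and 5576 in Mx1_Cre 1 to 4. Cct4 had 10315, 10557 and 11276 in DEL52, against 11800, 10384, 7960 and 8577 in Mx1_Cre libraries. DEL52 3 exceeded Mx1_Cre 2 in both genes, and DEL52 2 did so in Cct4. The log2 difference was 0.15 for Cct2 (95% interval -0.33 to 0.62; limma, adjusted p = 0.716) and 0.16 for Cct4 (-0.25 to 0.58; adjusted p = 0.655).

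Thus limma called 0 of 8 subunits over all libraries, with 0 at an unadjusted p under 0.05. It called 0 of all 16047 genes (0.0%), with 1365 at an unadjusted p under 0.05. The smallest adjusted p of any gene in this limma fit was 0.538. Genes with different unadjusted p-values share it, so it does not rank the genes that have it. With edgeR 0 subunits and 0 genes were called, with 1639 genes unadjusted, and DESeq2 called 107 genes, 0 of them subunits. The median log2 difference of the 8 subunits was 0.14, against 0.00 over all tested genes, and all 8 were positive. All 8 intervals include 0, and their upper bounds run from 0.58 for Cct4 to 0.79 for Cct8. The groups overlapped in all 8 subunits, so 0 of 8 stood entirely higher (5.23% of all tested genes) or entirely lower (4.34%) in DEL52.

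The levels of the 8 subunits moved together between libraries more than they moved apart. As the mean log2 deviation from each gene's average, the complex stood at -0.01, 0.06 and 0.17 in DEL52 1 to 3, against 0.38, 0.16, -0.42 and -0.35 in Mx1_Cre 1 to 4. The SD of this mean over the 7 libraries was 0.290, whereas the SD of a single subunit around it was 0.0272 to 0.0995. Mx1_Cre 1 was the highest library for 8 of 8 subunits, and Mx1_Cre 3 or 4 was the lowest for 8 of 8. The subunits together took 0.411%, 0.433% and 0.440% of normalized counts in DEL52, against 0.533%, 0.471%, 0.314% and 0.329% in Mx1_Cre libraries. In sorted bulk samples, fewer cells rich in these transcripts and less of the transcripts per cell cannot be told apart.

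**Figure D2:**
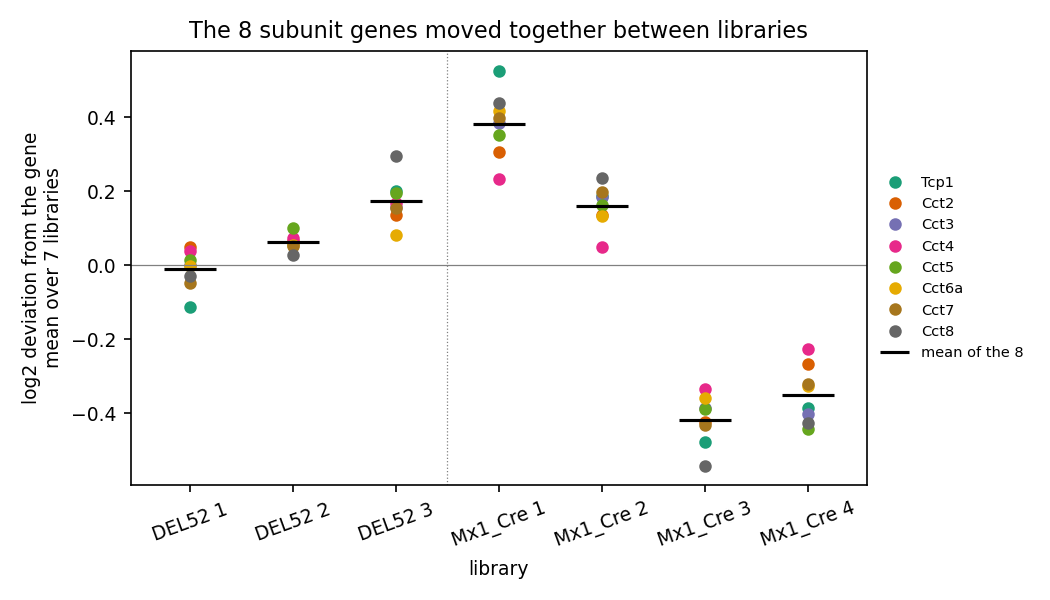
Log2 deviation of each subunit gene from its mean over the 7 libraries (vertical axis), by library, with DEL52 left of Mx1_Cre; each point is 1 gene and each bar the mean of the 8. The points of a library cluster around its bar, and the bars run from -0.42 in Mx1_Cre 3 to 0.38 in Mx1_Cre 1, with the 3 DEL52 bars between.

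The 2 pairs of controls differed from each other by a median of -0.67 over the subunits, against the 0.14 between genotypes. Between Mx1_Cre 3 and 4 and Mx1_Cre 1 and 2, pairs that differ in the numbering of their titles, limma called 8 of 8 subunits lower in Mx1_Cre 3 and 4, where 25.3% of all tested genes were called lower. The largest differences were -0.82 for Cct8 and -0.79 for Tcp1, and the smallest was -0.42 for Cct4, with limma adjusted p-values of 1.93e-04, 4.74e-04 and 8.19e-03. The remaining 5 subunits lay between -0.68 and -0.57.

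The sign of the genotype difference followed which controls were used. Against Mx1_Cre 3 and 4 alone, all 8 subunits were higher in DEL52 and 6 of 8 rose by limma's test, where 19.7% of all tested genes rose. These were Cct8 (0.58, adjusted p = 0.0192), Cct5 (0.52, 0.0213), Tcp1 (0.48, 0.0336), Cct3 (0.47, 0.0283), Cct7 (0.43, 0.0441) and Cct2 (0.43, 0.0363), while Cct6a and Cct4 had 0.39 and 0.37 and did not pass. Against Mx1_Cre 1 and 2 alone, all 8 differences were negative, from -0.31 for Tcp1 to -0.05 for Cct4, and 0 of 8 subunits passed, where 0.318% of all tested genes did. These comparisons share the 3 DEL52 libraries. The median of the 8 was 0.45 in the first and -0.22 in the second.

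**Figure D3:**
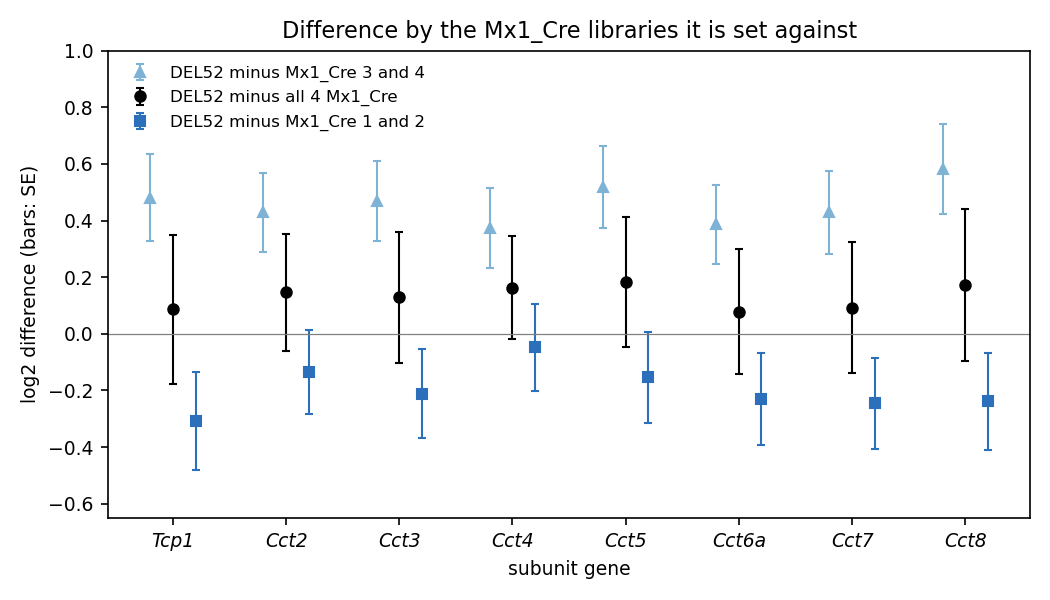
Log2 difference of each subunit gene (DEL52 minus Mx1_Cre, limma), against Mx1_Cre 3 and 4, all 4 controls or Mx1_Cre 1 and 2; bars are SE. Every subunit is positive against Mx1_Cre 3 and 4 and negative against Mx1_Cre 1 and 2, and the value against all 4 lies near 0, between 0.08 and 0.18.

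Within the series of title numbers shared by both genotypes (DEL52 1 and 2 against Mx1_Cre 3 and 4), 3 of 8 subunits rose, where 16.4% of all tested genes did. These were Cct8 (0.48), Cct5 (0.47) and Cct3 (0.43), and the median of the 8 was 0.40. Among the other libraries DEL52 3 stands alone against Mx1_Cre 1 and 2 and is assumed to vary like them. There 7 of 8 differences were negative, from -0.19 for Cct6a to -0.04 for Cct8, and Cct4 was at 0.03. With the length slope of each library as a covariate all 8 were negative (-0.24 to -0.02). In that fit 0 of 8 were called, where 127 of all 16047 tested genes were. With the title series as a covariate all 8 were positive (0.14 to 0.27, median 0.21). Here too 0 of 8 were called, where 3597 of all 16047 tested genes were. The slope is set mainly by Mx1_Cre 3 and 4, so the fit with it overlaps in what it does with the fit that leaves them out.

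The paralogue Cct6b, which replaces Cct6a in testis, did not share this pattern (Pearson's r of 0.126 with the mean of the 8 over the 7 libraries). It had 46.0, 41.1 and 44.7 normalized counts in DEL52 1 to 3, against 17.5, 22.9, 28.4 and 15.0 in Mx1_Cre 1 to 4. Every DEL52 library was above every Mx1_Cre library, as in 5.23% of all tested genes. The level of Cct6b rested on 37 to 46 reads in DEL52 and 16 to 34 in Mx1_Cre libraries. The log2 difference was 1.07 (SE 0.33, 95% interval 0.31 to 1.83, not adjusted for the number of genes). It did not pass over all genes (limma, adjusted p = 0.538). The difference was 1.10 against Mx1_Cre 1 and 2 and 1.05 against Mx1_Cre 3 and 4.

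The genes most like the complex over the 7 libraries, by Pearson's r with the mean deviation of the 8 subunits, were Hat1 (r = 0.999), Ncl (0.998), Aifm1 (0.997), Hspd1 (0.996) and Carnmt1 (0.995). Hat1 encodes a histone acetyltransferase, Ncl the nucleolar protein nucleolin, and Hspd1 the mitochondrial chaperonin HSP60, the other chaperonin of the cell. Hspd1 had 10251, 11032 and 12509 normalized counts in DEL52 1 to 3, against 14515, 11898, 7713 and 8187 in Mx1_Cre 1 to 4, the same arrangement of libraries as Tcp1. The subunits themselves had r of 0.975 to 0.996 with their own mean, which includes them. A total of 569 other genes (3.55%) reached 0.95, so the pattern was not particular to the complex.

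Upstream of CCT, prefoldin is a complex of 6 subunits that binds unfolded actin and tubulin and hands them over. All 6 of its genes were measured, all 6 had positive differences, and 0 passed over all libraries (median 0.52). Pfdn5 had 3903, 2545 and 4536 normalized counts in DEL52 1 to 3, against 2699, 2866, 1504 and 1588 in Mx1_Cre 1 to 4 (log2 0.78, SE 0.31; limma, adjusted p = 0.538). Only DEL52 2 was below a control. Pfdn4 had 0.68, Pfdn1 0.57, Pfdn2 0.47, Pfdn6 0.45 and Vbp1 0.40. Against Mx1_Cre 3 and 4 all 6 rose, by 0.70 to 1.30 on the log2 scale, where 19.7% of all tested genes rose, and against Mx1_Cre 1 and 2 the median was -0.01 with 0 called.

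Phosducin-like proteins bind CCT together with its substrate. Pdcl, which serves folding of G protein beta subunits, had 1757, 1756 and 1678 normalized counts in DEL52 1 to 3, against 1436, 1465, 1617 and 1507 in Mx1_Cre 1 to 4. Every DEL52 library was above every control, as in 5.23% of all tested genes. The differences of Pdcl were small and of 1 sign. They were 0.20 over all controls (limma, adjusted p = 0.547), 0.25 against Mx1_Cre 1 and 2 and 0.15 against Mx1_Cre 3 and 4. Pdcl3 had 0.42 and Txndc9 0.29 over all controls. Against Mx1_Cre 3 and 4 they had 0.78 and 0.71 and both rose, where 19.7% of all tested genes rose. Against Mx1_Cre 1 and 2 they had 0.07 and -0.12.

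**Figure D4:**
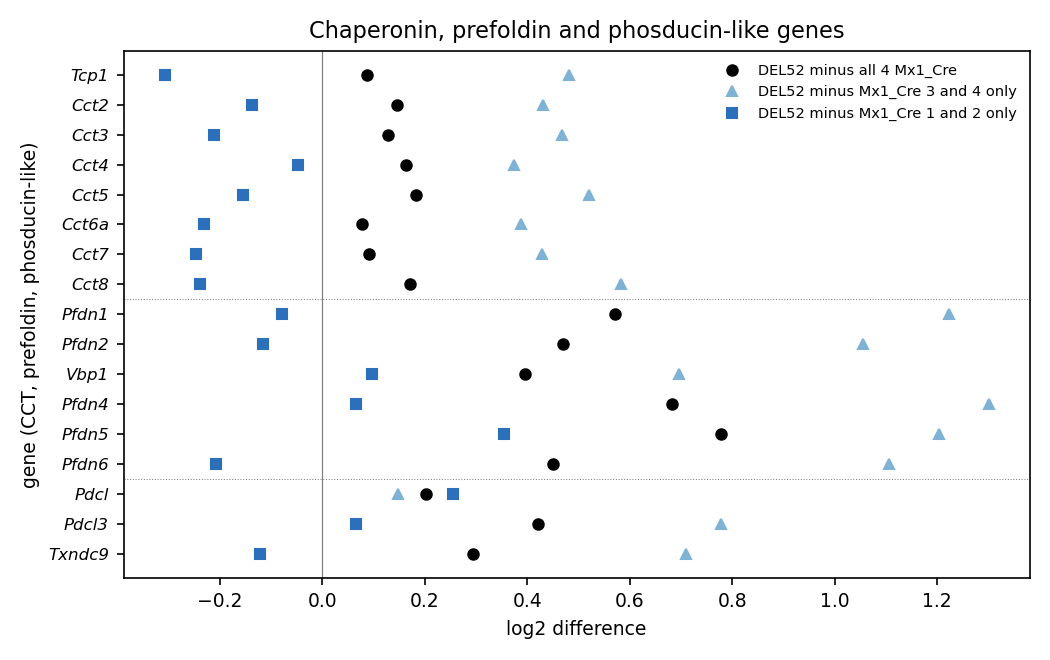
Log2 difference (DEL52 minus Mx1_Cre, limma) of the 8 subunit genes, 6 prefoldin genes and 3 phosducin-like genes, against all 4 controls, Mx1_Cre 3 and 4 only or Mx1_Cre 1 and 2 only. The medians against Mx1_Cre 3 and 4 and against Mx1_Cre 1 and 2 lie further apart for prefoldin (1.15 and -0.01) than for CCT genes (0.45 and -0.22). The prefoldin gene Vbp1 (0.70 and 0.10) has a narrower gap than most CCT genes. Pdcl is alone in having the larger value against Mx1_Cre 1 and 2.

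Downstream, tubulin released by CCT passes to the tubulin cofactors, of which 8 were tested. Of these 6 were positive and 0 passed (median 0.25). The largest differences were -0.63 for Tbcd, 0.61 for Tbca and 0.46 for Tbcb, and against Mx1_Cre 1 and 2 they were -0.06, -0.02 and -0.09. Among the actin and tubulin genes themselves, 8 of 14 were positive and 0 passed (median 0.04). Tuba8 had 776, 860 and 1537 normalized counts in DEL52 1 to 3, against 3368, 3581, 948 and 575 in Mx1_Cre 1 to 4. It was lower against Mx1_Cre 1 and 2 (log2 -1.78; limma, adjusted p = 0.0343) and higher against Mx1_Cre 3 and 4 (0.45, adjusted p = 0.286). Tubb2a had 101, 136 and 132 normalized counts in DEL52 and 181, 163, 153 and 159 in Mx1_Cre libraries (log2 -0.42, limma adjusted p = 0.538). Its groups did not overlap, and 4.34% of all tested genes likewise stood entirely lower in DEL52.

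Of 17 other known substrates, which include G protein beta subunits, activators of the anaphase-promoting complex and WD40 proteins of mTOR complexes, 14 had negative differences and 0 passed (median -0.20). Sphk1, a sphingosine kinase, had 18.0, 20.5 and 35.0 normalized counts in DEL52 1 to 3, against 95.0, 46.7, 110 and 58.2 in Mx1_Cre 1 to 4. Every DEL52 library was below every control, as in 4.34% of all tested genes. The log2 difference, the largest in size of the 17, was -1.60 (SE 0.41, limma adjusted p = 0.538). It was -1.47 against Mx1_Cre 1 and 2 and -1.73 against Mx1_Cre 3 and 4. Rptor, the mTOR partner raptor, and Dcaf7, a WD40 scaffold, had -0.94 and -0.92, but -0.13 and 0.04 against Mx1_Cre 1 and 2. R2TP is a further co-chaperone machine that helps to assemble RNA polymerases and other large complexes, and its genes with their prefoldin-like partners had a median of 0.24 over 8 tested (6 positive, 0 called), led by Pdrg1 and Uxt (0.41 each) and Polr2e (0.38). Of the 3 chaperonin-like genes of Bardet-Biedl syndrome, whose products work with CCT to assemble the BBSome of cilia, Mkks had 0.38, Bbs10 -0.18 and Bbs12 -0.03, and 0 were called.

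Other chaperonins, heat shock chaperones and their transcription factors had a median of 0.06 over 11 tested, 8 positive and 0 called. Hspe1, the co-chaperonin of HSP60, had 5220, 4525 and 6611 normalized counts in DEL52 1 to 3, against 5162, 4718, 2474 and 2339 in Mx1_Cre 1 to 4 (log2 0.64; limma, adjusted p = 0.538). Hsf1, the heat shock factor that CCT is known to hold back in human cells, had 1906, 2476 and 1837 in DEL52, against 2318, 2627, 3926 and 3866 in Mx1_Cre libraries (log2 -0.59; adjusted p = 0.538). Hsf1 was highest in Mx1_Cre 3 and 4, where the subunits were lowest. It was called higher there than in Mx1_Cre 1 and 2 (log2 0.66), as 29.6% of all tested genes were. In Mx1_Cre 1, where the subunits were highest, Hsf1 was above DEL52 1 and 3. A link between these mRNA levels was not tested. Hsph1, an HSP110 chaperone, had -0.48.

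CCT levels are known to be high in growing cells, so proliferation genes were set beside them. Of 17 such genes 12 had negative differences and 0 passed (median -0.23). Mki67 had 1506, 1857 and 1446 normalized counts in DEL52 1 to 3, against 2371, 2310, 2617 and 3445 in Mx1_Cre 1 to 4 (log2 -0.73, SE 0.20, limma adjusted p = 0.538). Its groups did not overlap, and 4.34% of all tested genes likewise stood entirely lower in DEL52. Mcm2 and Top2a had -0.64 and -0.61. Between the pairs of controls, 10 of the 17 were called lower in Mx1_Cre 3 and 4 than in Mx1_Cre 1 and 2, as all 8 subunits were (25.3% of all tested genes), with a median of -0.51. Among these were Cdk1 (-1.23) and Birc5 (-1.17), chosen after their values were seen. Mki67 (0.36) and Mcm2 (0.42) were called higher in Mx1_Cre 3 and 4, where 29.6% of all tested genes were called higher. The part of proliferation in the subunit levels was not tested.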

How the data were processed

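RNA was isolated with PicoPure, amplified with SMART-Seq v4, sheared and built into unstranded Swift 2S Plus libraries, per the labels' protocols. The listed tools are STAR 2.7.3a, FastQC 0.11.7, DESeq2 1.12.4, HTSeq 0.6.1 and Cufflinks 2.2.1, with the build GRCm38, per the submitters' processing notes. For genes the authors deposited a signal, the normalized count of each library. In each library 100% of values were whole multiples of 1 step, within a tolerance of 0.01 reads, so reads were recovered. The transcript values deposited by the authors were FPKM for 66660 transcripts, and amplification bias toward transcript length or end can affect both tables.

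Genes with at least 10 normalized counts in at least 3 libraries entered a two-sided limma test (3.58.1, R 4.3.3, variance trend) of log2(normalized count + 1), adjusted by Benjamini-Hochberg over all 16047 genes at 0.05. Transcripts with 1 FPKM in 3 libraries were tested likewise on log2(FPKM + 1). These log2 differences understate changes of low genes. Recovered reads were also tested with edgeR 4.0.16 and DESeq2 1.42.0. GENCODE vM21 matched 97.9% of genes and 99.1% of transcripts. Only the main limma fit was run on simulated reads, and these held no split between the pairs of controls. That run therefore cannot say how the fits behave with such a split. The named genes were the subunits, their paralogues, prefoldin and phosducin-like genes, the 3 largest differences in every other pathway list, the 5 genes most like the subunits, and Calr. Cct8l1, Pdcl2 and Tubb2b are not analysed here, and Tubb3 did not pass the filter. Members, lists and alternatives were chosen with earlier results of these data known. Replicate numbers here count libraries within each group and mark no pairs. The titles share no number between the groups, so none was paired.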

Additional observations from a re-analysis of the deposited data

How the results depend on the processing

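Pseudocount, filter, TMM, variance trend, library weights, edgeR, DESeq2 and summed FPKM kept all 8 subunit differences positive and uncalled. With quantile normalization, which moved the median of all genes to 0.05, the median was 0.01, with Cct3 at -0.026, Cct5 at -0.0012, Cct6a at -0.079 and Cct7 at -0.068. The median of the 8 was -0.22 without Mx1_Cre 3 and 4, 0.45 without Mx1_Cre 1 and 2, -0.17 with the length slope and -0.11 in the libraries outside the shared title series. Without Mx1_Cre 3 and 4, Tcp1, Cct2, Cct3, Cct4, Cct5, Cct6a, Cct7 and Cct8 had -0.31, -0.14, -0.21, -0.048, -0.15, -0.23, -0.25 and -0.24. With the length slope they had -0.24, -0.091, -0.16, -0.017, -0.10, -0.18, -0.19 and -0.19. Outside the shared title series those other than Cct4 had -0.16, -0.084, -0.13, -0.062, -0.19, -0.14 and -0.042. With each library left out in turn the median was 0.02 to 0.27, Tcp1 had -0.060 to 0.28, Cct6a -0.030 to 0.23 and Cct7 -0.039 to 0.24, and 0 genes were called. Genes called over the whole table numbered 107 with DESeq2, 51 without Mx1_Cre 3 and 4, 6828 without Mx1_Cre 1 and 2, 127 with the length slope, 3597 with the title series as a covariate, 6010 within that series and 1022 outside it. Transcripts called numbered 3 with no filter, 2 without Mx1_Cre 3 and 4, 6778 without Mx1_Cre 1 and 2, and 0 to 1 with each library left out. The SD of log2 levels over the subunits, 0.498 as FPKM averaged over libraries, was 0.642 per kb of exonic length and 0.611 for the most abundant transcript alone. The causes were not tested. The 8 subunits have 5988 to 20749 reads per library, so the error of counting reads is small beside the spread between libraries. Reads of amplified RNA do not count starting molecules. Cct6b rests on 16 to 46 reads per library. No paired analysis was possible because the labels give no replicate numbers shared between the groups.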
